A study of Gallus gallus with 48 samples.

Results

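The potassium channel genes described here are the 70 genes whose symbol in the platform annotation starts with KCN, of 13009 genes that the annotation named from 1 symbol. The 70 genes were read by 125 probe sets, and each gene was represented by its probe set with the highest mean over the 48 arrays. A total of 36 genes had a single probe set and 34 had more. Retina and retinal pigment epithelium (RPE) had been collected together as 1 sample from each eye of 24 chicks of the White Leghorn breed. From 1 week of age a chick wore a lens of -15 or +15 diopters (D) on 1 eye for 6 hours or for 3 days, and its fellow eye wore none. The 4 lens conditions had 6 birds each, so there were 8 groups of 6 arrays, and the labels give the birds as separate replicates of less than 2 weeks of age. A negative lens shifts focus to behind the retina, and a positive lens shifts it forward. The birds lived under 12 hours of light a day, and the sources used here do not state the hour at which eyes were taken.

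Potassium channels let potassium leave or enter the cell and so set the resting potential, end action potentials and pace firing. Voltage-gated pore subunits open on depolarization, inward rectifiers and two-pore channels hold the membrane at rest, calcium- or sodium-activated channels couple ion entry to repolarization, and auxiliary subunits change how a pore opens or where it goes. In the eye they shape photoreceptor and bipolar cell responses, carry potassium away through Muller glia and the RPE, and control the tone of choroidal and retinal vessels.

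The tissue carried markers of its label and, in some eyes, those of other tissues. Cone transducin GNAT2 had a mean log2 signal of 12.4, the pigment epithelium isomerase RPE65 12.2, the glial enzyme GLUL 13.7 and the inner retinal calcium binder CALB2 13.9. These were among the brightest markers listed for their cell types. Dimmer ones included GNAT1 at 6.27, LRAT at 6.10, BEST1 at 5.73, POU4F2 at 5.59 and LHX1 at 4.91. The pigment gene SLC45A2 was at 4.12, below the 95th percentile of probe sets for viral sequences (4.50 log2), which serves here as background. Array medians lay between 6.39 and 6.51 log2. In 3 birds the lens and control eye stood apart over all probe sets, with a standard deviation of the within-bird difference more than 1.5 times the median bird: -15 D 6 hours birds 3 and 5 and +15 D 3 days bird 1. Markers of choroid, vessel and connective tissue varied between the eyes of one bird: the mean of 12 such genes differed by -2.59 to 4.81 log2 within the -15 D 6 hours birds and by -3.36 to 3.92 within the +15 D 3 days birds. Markers of the crystalline lens differed further. The mean of 10 such genes was lower in the lens-wearing eye by more than 1 log2 in 6 birds (-15 D 6 hours birds 3 and 5, -15 D 3 days bird 4, +15 D 6 hours bird 1 and +15 D 3 days birds 3 and 5), with differences of -6.00 to -1.20. Their summed level reached 16.69, 16.27 and 16.04 log2 in single control eyes of 3 groups, beside medians of 11.80 to 12.01 in the 4 control groups. The mean of 10 striated muscle markers was higher in the lens-wearing eye by 2.46 and 3.33 in -15 D 3 days birds 5 and 6. Results without these 8 birds are given below, a choice made after seeing the data. Precision is limited by the number of arrays. In tissue samples, fewer cells of a type and less RNA per cell cannot be told apart.

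By mean signal 59 of the 70 genes lay above the viral background and 11 below it, and 10 exceeded 10 log2. Most of the 13009 genes lay above background too. The dimmest member above it, at 4.60 log2, ranked 11683 among them, and the brightest below it, at 4.32, ranked 11948. The median member, at 6.16 log2, was brighter than 26.4% of all genes. The order is one of signals, since probe sets also differ in how well they bind, and other probe sets of a gene could be much dimmer (KCNAB2 11.47, 7.44 and 6.85 beside 12.60, KCNC2 7.88 and 6.67 beside 11.45, and KCNK2 down to 3.40 beside 9.11). KCNAB2, a cytoplasmic subunit that joins Shaker-type pores, led at 12.60 log2 (SD 0.113 over 48 arrays), which ranked it 361 among the 13009 genes. KCNMA1, the pore of the large-conductance calcium-activated channel, followed at 12.03, and KCNAB1, a relative of KCNAB2, at 11.99.

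Among the 29 voltage-gated genes, 27 were above background, with a median of 6.55 log2. KCNC2 at 11.45 and KCNC1 at 11.30 encode pores that repolarize fast-firing neurons. KCNA4 at 11.11 and KCND2 at 10.82 encode pores of rapidly inactivating A-type currents. KCNA2, a Shaker-type delayed rectifier of axons, was at 10.01, and its relative KCNA1 was at 6.33. KCNV2 was at 7.67. It encodes a silent subunit that modifies other pores in photoreceptors, and its loss in humans causes a cone dystrophy. KCNQ5, a pore of the M-current family, was the dimmest of the class at 3.59.

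All 13 auxiliary genes were above background, from KCNMB2 at 5.03 upward. After the KCNAB pair came KCNMB4, the neuronal partner of KCNMA1, at 10.15. KCNIP4 and KCNIP1, calcium-binding partners of the KCND pores, were at 8.29 and 5.23.

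The inward rectifiers were led by KCNJ2, a strong rectifier that holds the resting potential, at 9.91, then KCNJ5, a pore opened by G proteins, at 8.23, and KCNJ8, the pore of the vascular ATP-sensitive channel, at 7.24. Of the 10, 7 were above background, and KCNJ16, which pairs with other rectifiers in transporting epithelia, was lowest at 3.36. KCNJ13 and KCNJ10, the rectifiers best known from the RPE and Muller glia, were not analysed here.

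Of the 12 two-pore genes, 7 were above background. KCNK7, a family member not known to pass current by itself, gave 11.42 log2, but its other probe sets gave 6.20 and 5.09. KCNK2, a channel opened by stretch and lipids, was at 9.11, KCNK15 at 6.36 and KCNK5, an alkali-sensitive leak channel, at 5.70. KCNK17 was the dimmest of all 70 genes at 3.06. In the calcium- or sodium-activated class, 5 of the 6 genes were above background. The sodium-activated KCNT1 was at 9.09, the small-conductance KCNN2 at 8.46 and KCNU1, known from sperm, at 4.11. Classes were set by the start of the gene symbol, not by what opens each channel.

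**Figure D1:**
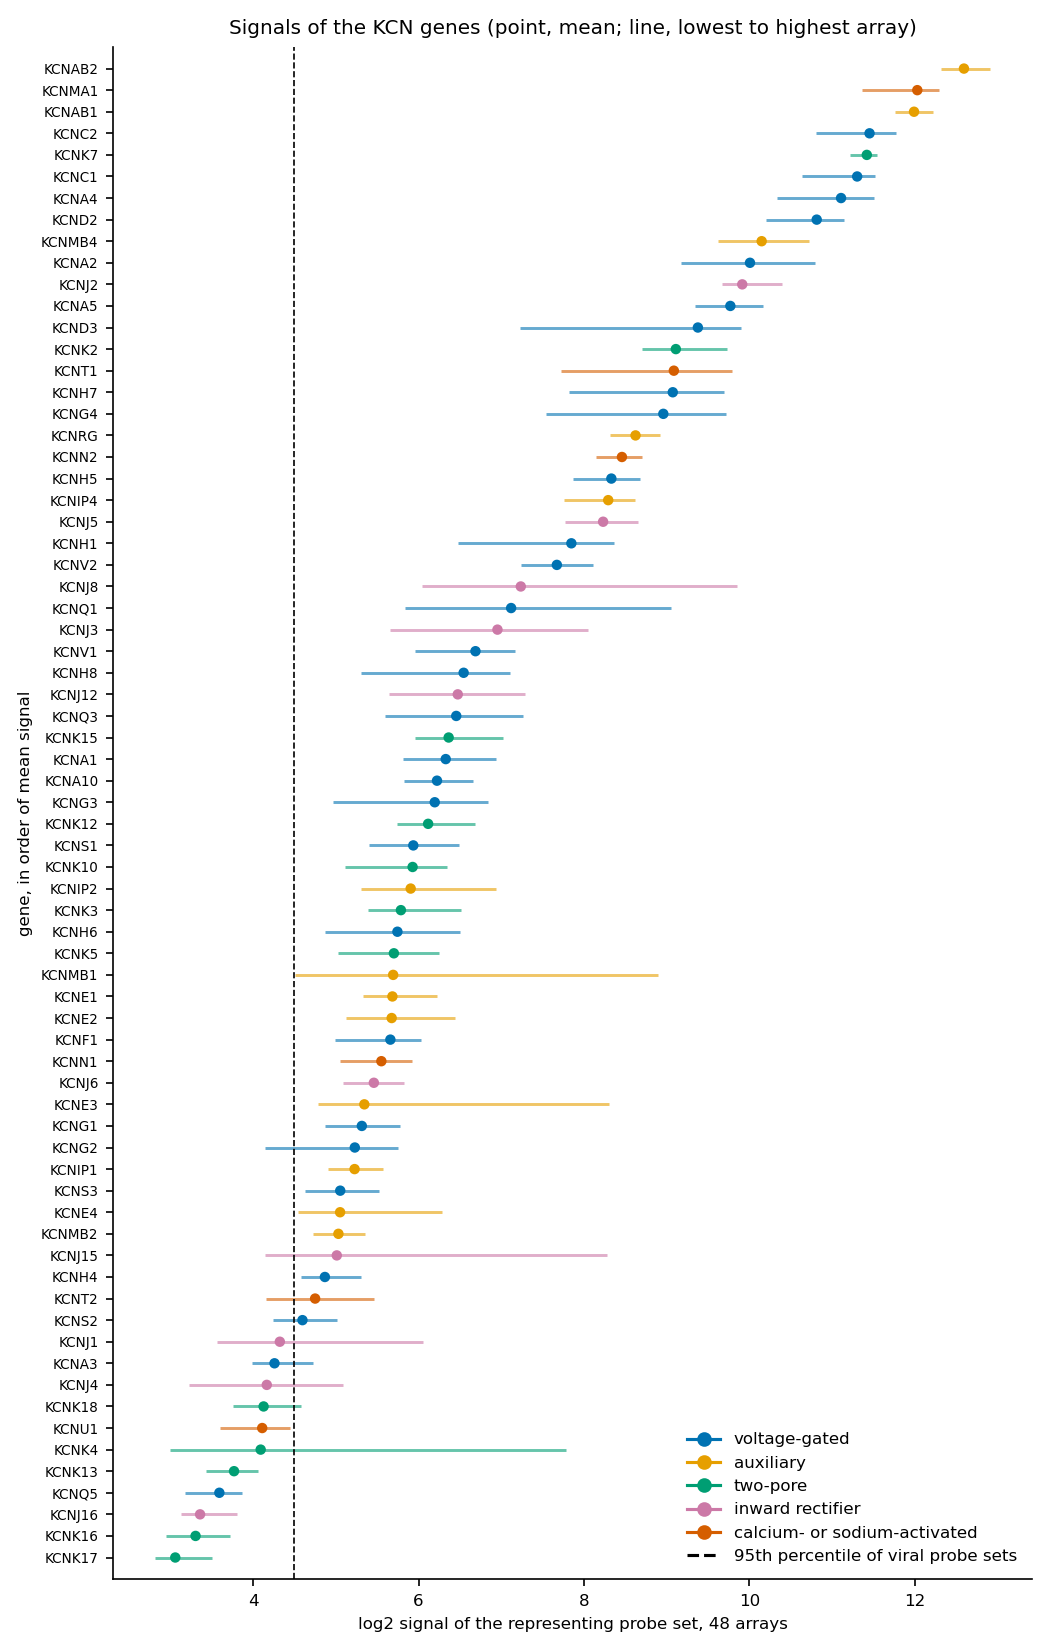
Mean log2 signal of each of the 70 KCN genes (points, coloured by channel class) with the lowest and highest of 48 arrays (lines) and the 95th percentile of viral probe sets (dashed). KCNAB2, KCNMA1 and KCNAB1 lie at the top, 11 genes have means below the dashed line, and KCNK4, KCNJ15, KCNJ8 and KCNMB1 have the longest lines.

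Lens wear was compared within birds, lens eye minus control eye, with limma on all 38382 probe sets and Benjamini-Hochberg adjustment over all of them. None of the 70 genes passed an adjusted p of 0.05 in any of the 4 conditions, nor did any of their 55 other probe sets. The share of all probe sets that passed was 0.0391% under -15 D at 6 hours, 0.00782% under +15 D at 6 hours, 0.0703% under -15 D at 3 days and 0.00521% under +15 D at 3 days. At an unadjusted p below 0.05 the counts were 5, 10, 13 and 5 of 70, beside 10.1%, 7.51%, 14.2% and 3.92% of all probe sets. By 1 probe set per gene, 2, 2, 9 and 1 of all 13009 genes passed. Of those genes 9.22%, 7.22%, 15.8% and 3.23% had an unadjusted p below 0.05. The smallest adjusted p among the members was 0.131, 0.660, 0.0946 and 0.977 in the same order.

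The 3 members with the lowest p under -15 D at 3 days, KCNIP4, KCNA4 and KCNH6, had means below 0. KCNIP4 had log2 signals of 8.24 to 8.44 (median 8.38) in the control eyes and 8.01 to 8.31 (median 8.08) in the lens eyes. The 6 within-bird differences ran from -0.35 to -0.12, with a mean of -0.25 (SE 0.07, adjusted p 0.0946). The lens eye was lower in 6 of 6 birds, although the groups overlapped.

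KCNA4 ran from 10.91 to 11.33 (median 11.19) in these control eyes and from 10.64 to 11.02 (median 10.92) in the lens eyes. Its differences were -0.40 to -0.14, mean -0.28 (SE 0.08, adjusted p 0.111), and its other probe set gave -0.28 as well. The lens eye was again lower in 6 of 6 birds.

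KCNC2 ran from 11.39 to 11.48 (median 11.40) in the control eyes and from 11.02 to 11.37 (median 11.18) in the lens eyes. The mean difference was -0.23 (SE 0.08, adjusted p 0.201), and the other KCNC2 probe sets gave -0.40 and -0.09. KCNH6, a pore of the ether-a-go-go family, gave -0.38 (SE 0.12, adjusted p 0.126), with single birds between -0.97 and -0.07. KCNG4, a silent subunit that modifies other pores, gave -0.35 (SE 0.14, adjusted p 0.231), between -0.47 and -0.14. Against these stood KCNMB2, a subunit that inactivates the KCNMA1 pore, at 0.21 (SE 0.07, adjusted p 0.148, above 0 in 5 of 6 birds). Its other probe sets gave 0.10 and 0.11.

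By class, 21 of the 29 voltage-gated genes had a mean below 0 under -15 D at 3 days, with a class median of -0.10. Of all 13009 genes, 7830 had a mean above 0, and their median was 0.03 over the whole set. Several marker and quality measures moved in the same birds. The mean of 11 photoreceptor markers was lower in the lens eye in 6 of 6 birds, with differences of -0.25 to -0.03 log2. Striated muscle markers were higher on average by 1.00 (5 of 6 birds, 10 of 10 genes above 0) and choroid, vessel and connective tissue markers by 0.73 (5 of 6 birds, 11 of 12 genes above 0). The 3' to 5' signal difference of the actin control probe sets, a measure of RNA integrity and labelling, was higher in the lens eye in 6 of 6 birds, by 0.32 on average (SD 0.14), and that of GAPDH in 6 of 6 birds, by 0.0982 (SD 0.0746). Without the 8 birds with lens or muscle markers, which left 3 birds in this condition, KCNIP4 was at -0.29, KCNA4 at -0.23, KCNC2 at -0.32 and KCNH6 at -0.24. In that fit 0 of 70 genes passed (smallest adjusted p 0.118), and the share of all probe sets is not given here. The part of the other measures in the channel values was not tested. Weights were also estimated for each bird from its lens minus control differences (array weights). With them 7 of the 70 genes passed (KCNA4, KCNC2, KCNG2, KCNG4, KCNH1, KCNH6 and KCNIP4), beside 5.95% of all probe sets. With only these 12 arrays in the fit, 4 passed (KCNA4, KCNG4, KCNH8 and KCNIP4), beside 1.71%. KCNIP4 passed when only probe sets above the median signal were tested (1.99% of those passed), and KCNA4 without the 3 birds whose eyes stood apart (0.607%). Those 3 birds were of other conditions. Leaving them out changed the shared estimate of the spread and not the KCNA4 mean under -15 D at 3 days.

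Under -15 D at 6 hours KCNMA1 had the lowest p. Its control eyes ran from 11.80 to 12.25 (median 11.99) and its lens eyes from 11.36 to 12.14 (median 11.85). The lens eye was lower in 6 of 6 birds, mean -0.20 (SE 0.05, adjusted p 0.131), and bird 3, whose eyes stood apart, gave -0.54 against -0.26 to -0.07 in the others. Without bird 3 the mean was -0.13 (adjusted p 0.551). Its other probe sets gave -0.32, -0.22 and -0.09. KCNA4 was at -0.29 (SE 0.08, adjusted p 0.152), with -0.89 in bird 3, and -0.17 without that bird (adjusted p 0.591). KCNK10, a relative of KCNK2, was at -0.32 (SE 0.10, adjusted p 0.217), and KCNH7, another ether-a-go-go pore, was at -0.28 (SE 0.10, adjusted p 0.284) with 6 of 6 birds below 0. Of the 10 inward rectifiers, 9 had a mean above 0, beside 7126 of all 13009 genes, and none reached an unadjusted p below 0.05. In these birds the mean of 12 RPE markers was higher in the lens eye in 5 of 6 birds, by 0.24 on average (SD 0.65, 12 of 12 genes above 0), and choroid, vessel and connective tissue markers by 1.00 (3 of 6 birds, 10 of 12 genes above 0). The actin 3' to 5' difference was lower in the lens eye in 6 of 6 birds, mean -0.16 (SD 0.20). The part of these in the channel values was not tested. Without birds 3 and 5 and the other birds with lens or muscle markers, which left 4 birds here, KCNMA1 was at -0.10, KCNA4 at -0.15 and KCNH7 at -0.19, each with an adjusted p of 1.

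Under +15 D the values were of either sign. At 6 hours the lowest p belonged to KCNJ12, a strong inward rectifier, at 0.29 (SE 0.10, above 0 in 6 of 6 birds), followed by KCNJ2 at 0.16, KCND3 at 0.43 and KCNIP4 at -0.17. All had an adjusted p of 0.660. The KCND3 mean rested on bird 1, in which this A-type pore gene differed by 1.79, while the other 5 birds lay between -0.07 and 0.35 and had a mean of 0.15 (adjusted p 0.998). At 3 days KCNJ16 gave -0.27 and KCNJ4, a neuronal inward rectifier, 0.29. Both were below background, and their other probe sets gave -0.03 and 0.01. KCNT1 gave 0.25 (other probe sets 0.18, -0.01 and -0.01) and KCNK17 -0.18, and no adjusted p was under 0.977.

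**Figure D2:**
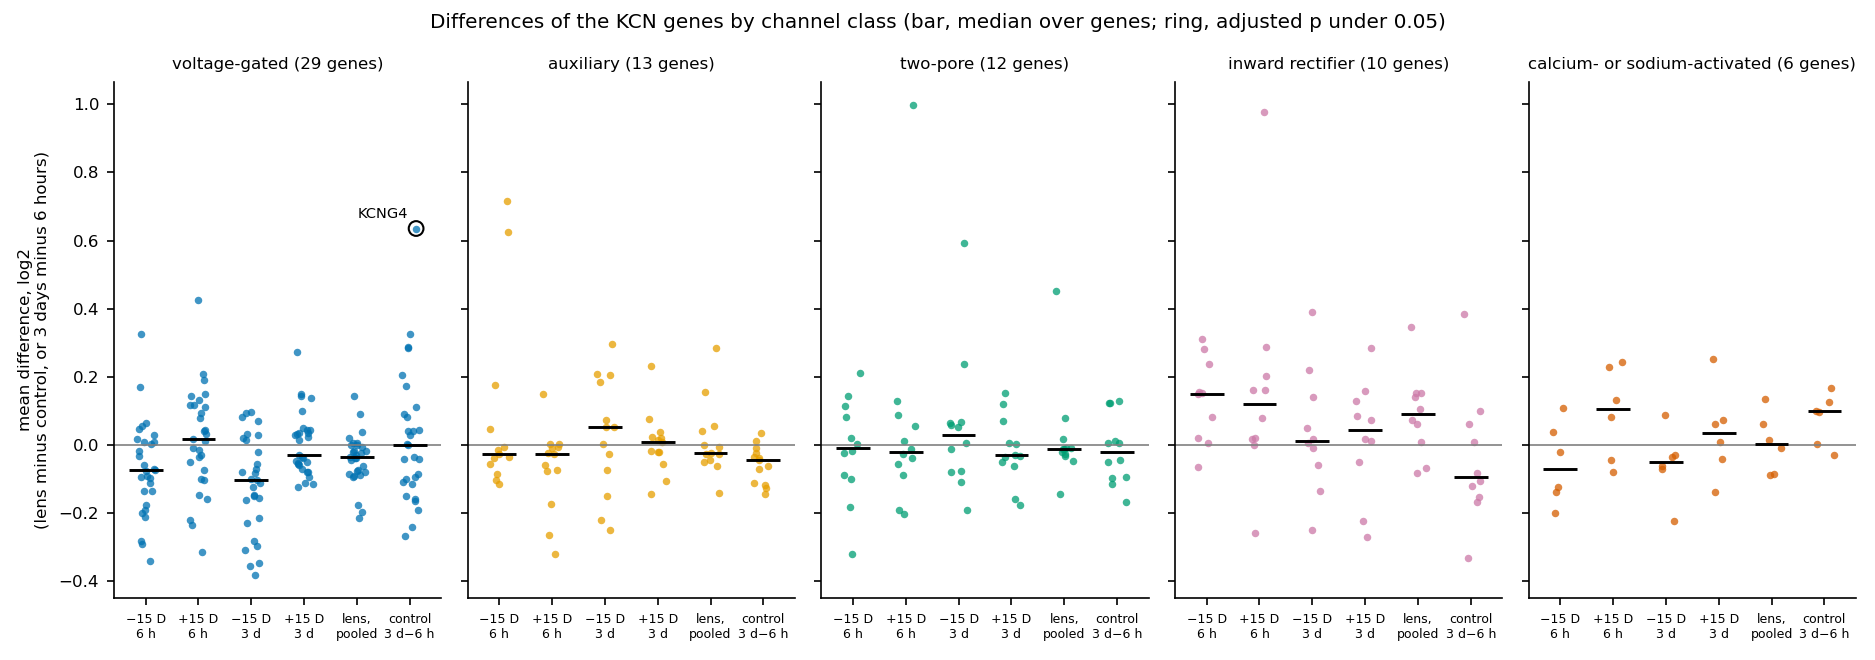
Mean log2 difference of each KCN gene, by channel class, for the 4 lens conditions, their pooled mean (24 birds) and control eyes at 3 days minus 6 hours. Bars are class medians, and the single ring marks KCNG4, the only member with an adjusted p under 0.05 in these 6 comparisons.

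The lens effect was also tested between conditions. No member passed for lens power at 6 hours or at 3 days, or for duration under either lens, and the shares of all probe sets that passed were 0%, 0%, 0.0104% for duration under -15 D and 0% under +15 D. The lowest p belonged to KCNH6, whose difference under -15 D was 0.17 at 6 hours and -0.38 at 3 days (change -0.55, SE 0.17, adjusted p 0.286). At 3 days its difference under -15 D was 0.53 log2 below that under +15 D (SE 0.17, adjusted p 0.402). KCNK5 had values in the other order under -15 D, -0.18 at 6 hours and 0.24 at 3 days (change 0.42, SE 0.14, adjusted p 0.312). At an unadjusted p below 0.05 the member counts were 2 and 8 for lens power at 6 hours and 3 days, and 6 and 2 for duration under -15 D and +15 D, beside 3.55%, 9.26%, 10.2% and 3.47% of all probe sets. By 1 probe set per gene the shares of all 13009 genes were 2.58%, 8.32%, 9.26% and 2.33%.

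Pooling the 4 conditions used all 24 birds, and again none of the 70 genes passed, beside 0.373% of all probe sets. At an unadjusted p below 0.05 there were 11 members, 7 of them below 0, beside 13.5% of all probe sets. KCNA4 had the lowest p. Its mean was 11.20 log2 in the control eyes and 11.02 in the lens eyes, a difference of -0.18 (SE 0.04, adjusted p 0.0557), and it was below 0 in 20 of 24 birds. Its other probe set gave -0.11.

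KCNIP4 gave -0.14 (SE 0.03, adjusted p 0.0647, below 0 in 20 of 24 birds), from a control mean of 8.36 to a lens mean of 8.22. KCNH7 gave -0.20 (SE 0.05, adjusted p 0.0855, below 0 in 21 of 24 birds), and its 3 dimmer probe sets gave -0.14, -0.13 and -0.01. KCNMA1 gave -0.09 (SE 0.03, adjusted p 0.144, below 0 in 18 of 24 birds), with all 4 of its probe sets between -0.16 and -0.07. These genes encode an A-type pore, the partner of another A-type pore, an ether-a-go-go pore and the large-conductance calcium-activated pore.

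KCNJ12 lay on the other side, at 0.15 (SE 0.05, adjusted p 0.169, above 0 in 18 of 24 birds), while its other probe set gave -0.01. By class, 21 of 29 voltage-gated genes had a pooled mean below 0 (median -0.04). Of the 10 inward rectifiers, of which 3 lay below background, 8 had a pooled mean above 0 (median 0.09). Of all 13009 genes, 7143 had a pooled mean above 0 (median 0.01). Without the 8 birds with lens or muscle markers, KCNA4 was at -0.16, KCNIP4 at -0.14, KCNH7 at -0.17 and KCNMA1 at -0.08, and the smallest adjusted p of the 70 genes was 0.154. The pooled calls turned on the settings. KCNA4, KCNH7 and KCNIP4 passed when only probe sets above the median signal were tested (1.69% of those passed), and with array weights these genes and KCNH8 passed (1.86%). KCNA4 and KCNIP4 passed among probe sets above the viral background (0.688%), KCNA4 with an intensity trend in the variance (0.448%), and KCNH7 and KCNIP4 when all probe sets of a gene were averaged (0.838%).

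**Figure D3:**
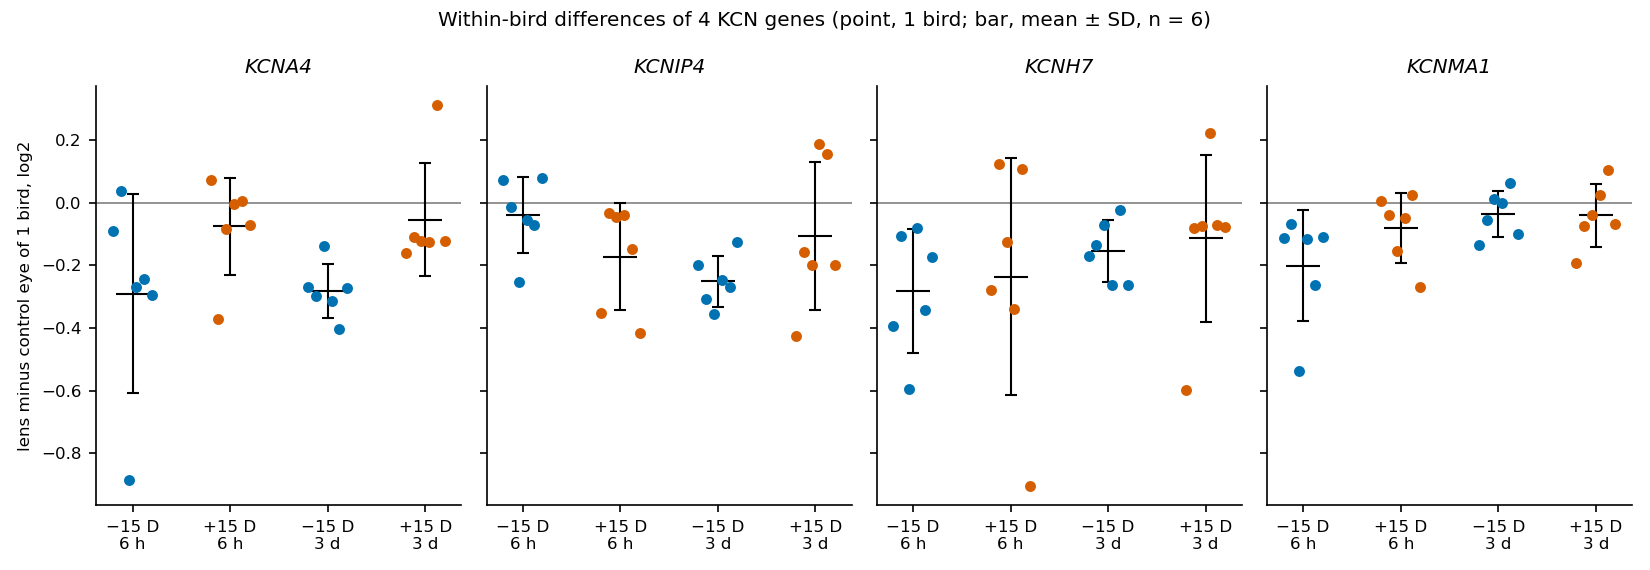
Within-bird log2 differences of KCNA4, KCNIP4, KCNH7 and KCNMA1, lens eye minus control eye, by condition (points are single birds, bars are mean ± SD, n = 6). Most points lie below 0 in each panel, all 6 birds of -15 D at 3 days do so for KCNA4, KCNIP4 and KCNH7, and -0.89 of KCNA4 in -15 D 6 hours bird 3 and -0.90 of KCNH7 in a +15 D 6 hours bird stand lowest.

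Control eyes at 3 days and at 6 hours came from different birds, 12 at each time. Age at collection, day, time of collection and how long the other eye had worn a lens cannot be told apart in this comparison. Of the 70 genes, KCNG4 alone passed, and it rose. The share of all probe sets that passed was 1.85%, and by 1 probe set per gene 353 of all 13009 genes passed. The brighter KCNG4 probe set ran from 7.54 to 9.35 (median 8.81) at 6 hours and from 8.60 to 9.72 (median 9.49) at 3 days. The difference was 0.64 log2 or 1.55-fold (SE 0.17, adjusted p 0.0436), and 7 of 12 eyes at 3 days exceeded the highest eye at 6 hours.

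The other KCNG4 probe set ran from 7.05 to 8.64 and from 7.76 to 9.04, a difference of 0.55 (SE 0.16, adjusted p 0.0942). By lens power of the bird, the difference was 0.66 in the -15 D birds (adjusted p 0.0389) and 0.61 in the +15 D birds (adjusted p 0.825). Without the 3 birds whose eyes stood apart it was 0.65 (adjusted p 0.107), and without the 8 birds with lens or muscle markers 0.48 (adjusted p 0.256). The lens eyes of the same birds gave 0.53 for KCNG4 (adjusted p 0.0355). In them KCNC2 (-0.26) and KCNK12 (-0.30) passed as well, both lower at 3 days, and the share of all probe sets was 5.62%. For KCNG4 in control eyes, leaving out 1 bird at a time gave 0.53 to 0.70. Its adjusted p was 0.0174 to 0.0814 and stayed under 0.05 in 8 of 24 omissions. Those were the omissions of -15 D 6 hours bird 6, +15 D 6 hours birds 1 to 5, -15 D 3 days bird 1 and +15 D 3 days bird 5. Beside the rise of KCNG4, the mean of 11 photoreceptor markers was 10.1 log2 (SD 0.193) at 6 hours and 10.5 (SD 0.147) at 3 days. Of the 11 markers, 5 passed and rose, beside 353 of all 13009 genes that passed in either direction. The summed level of these markers was 14.1 to 14.7 log2 at 6 hours and 14.6 to 15.1 at 3 days. Their part in the KCNG4 value was not tested.

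The next lowest p belonged to KCNV1, a silent subunit like KCNG4, which ran from 6.45 to 7.16 (median 6.87) at 6 hours and from 6.25 to 6.77 (median 6.64) at 3 days. All 12 eyes at 3 days lay below the 6 hours median, the difference was -0.24 (SE 0.07, adjusted p 0.101), and the lens eyes gave -0.23. KCNH7 gave 0.33 (SE 0.12, adjusted p 0.188), with 0.53 in the -15 D birds and 0.13 in the +15 D birds. KCNMB2 gave -0.13 (SE 0.05, adjusted p 0.274). At an unadjusted p below 0.05 there were 8 members, beside 13.5% of all probe sets and 15.9% of all genes by 1 probe set each.

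Other genes of potassium handling (exchangers, cotransporters, pumps, channel partners and related channels) numbered 42 measured of 54 listed. None of the 42 passed in a lens comparison or in the pooled one. In control eyes 2 passed and rose between 6 hours and 3 days, beside 353 of all 13009 genes that passed in either direction. Both encode sodium-calcium exchangers that also carry potassium. SLC24A4 ran from 8.83 to 9.49 (median 9.08) at 6 hours and from 9.87 to 10.42 (median 10.12) at 3 days, without overlap. The difference was 0.97 log2 (SE 0.08, adjusted p 6.65e-09). SLC24A2, the exchanger of cones, ran from 11.68 to 12.12 and from 12.00 to 12.32, a difference of 0.29 (SE 0.05, adjusted p 0.000573). SLC24A1, the exchanger of rods, gave -0.45 (SE 0.14, adjusted p 0.101).

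**Figure D4:**
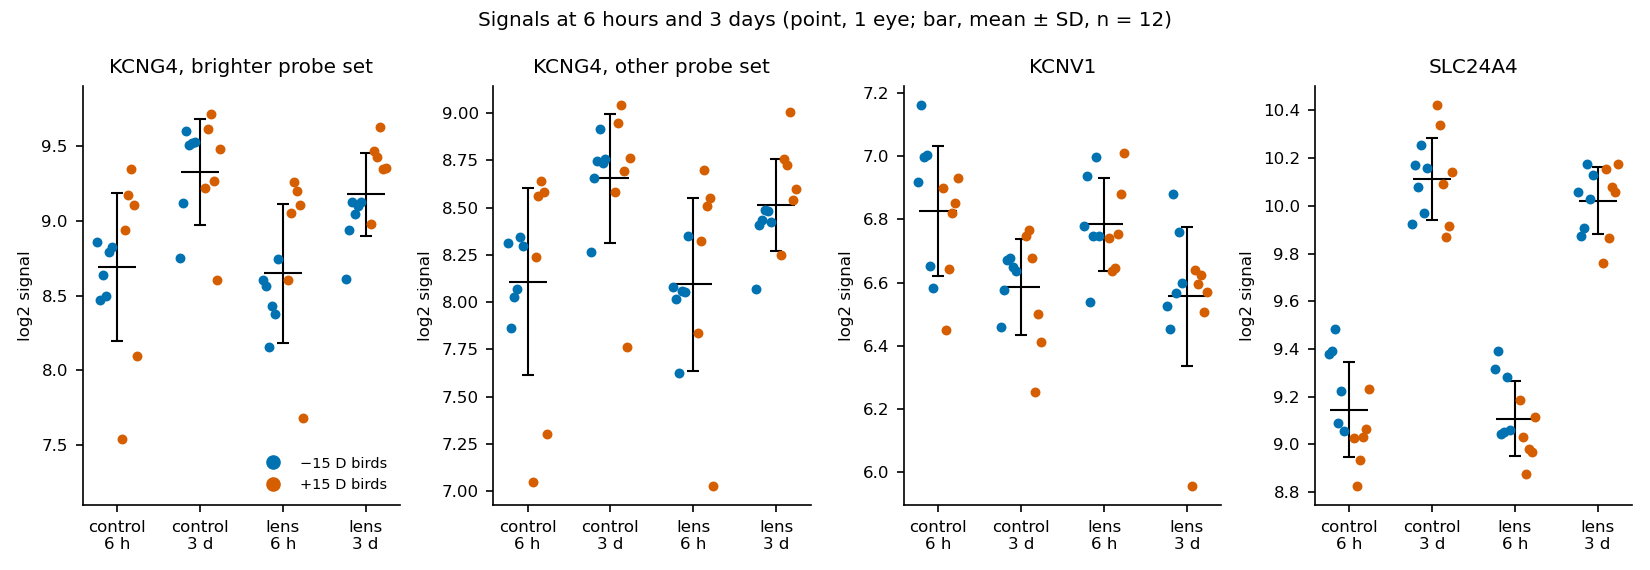
Log2 signals of both KCNG4 probe sets, KCNV1 and SLC24A4 in control and lens eyes at 6 hours and 3 days (points are single eyes, coloured by the lens power of the bird, and bars are mean ± SD, n = 12). KCNG4 and SLC24A4 are higher at 3 days in both eyes, the KCNV1 means are lower (adjusted p 0.101 in control eyes), and only SLC24A4 has no overlap between times.

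The genes that varied most between eyes included channels known from vessels and epithelia. Over the 48 arrays the median SD of the 70 genes was 0.213 log2. The SD was 1.19 for KCNK4, a stretch-gated two-pore channel below background on average (mean 4.09), and 0.898 for KCNJ15. It was 0.842 for KCNJ8 and 0.820 for KCNMB1, the smooth muscle partner of KCNMA1. It was 0.681 for KCNQ1 and 0.640 for KCNE3, a subunit that joins KCNQ1 in epithelia. In -15 D 6 hours bird 3 the lens eye exceeded the control eye by 4.42 for KCNK4, 3.89 for KCNMB1, 3.30 for KCNE3, 3.23 for KCNJ8, 2.83 for KCNJ15 and 1.70 for KCNQ1. In +15 D 3 days bird 4 the lens minus control difference was -2.44 for KCNJ8, -1.64 for KCNE3 and -1.57 for KCNQ1.

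The within-bird differences of all 70 genes were set against those of 3 marker lists, for photoreceptors, RPE, and choroid, vessel and connective tissue, over 24 birds. This was done after the spread had been seen. The 210 relations were tested by permutation (100000 resamples, two-sided) with Benjamini-Hochberg adjustment over all of them, and genes and lists were read from the same arrays. KCNQ1 followed the RPE markers with r = 0.97 and rho = 0.91 (permutation p 1e-05 for each, the smallest possible, adjusted p 0.0003 and 0.000525). Without the 2 birds farthest from the median r was 0.95, and within the 4 conditions it was 0.92 to 0.99. KCNJ1, a kidney and epithelial inward rectifier below background on average, followed the RPE markers with r = 0.77 and rho = 0.74 (permutation, adjusted p 0.000485 and 0.0018).

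KCNJ8 followed the choroid and vessel markers with r = 0.95 and rho = 0.95 (permutation, adjusted p 0.0003 and 0.000525), 0.92 without the 2 farthest birds and 0.81 to 0.98 within conditions. KCNMB1 did so with r = 0.89 and rho = 0.87, although r was 0.29 within -15 D at 3 days. KCNE3 did so with r = 0.88 and rho = 0.83. In the other direction, KCNJ5 had r = -0.81 and rho = -0.70 with these markers, and -0.95 to -0.39 within conditions. In all, 4 genes were positively and 7 negatively related to the choroid and vessel list on both measures, and 4 and 5 to the RPE list. These relations were tested only for the KCN genes, and the share of all genes is not given here. The counts therefore cannot be set against that share. KCNQ1, KCNJ8 and KCNE3 were positively related to both lists, and KCNJ2, KCNJ5 and KCNN2 negatively to both.

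For the photoreceptor list, 10 genes were positively related on both measures and 3 (KCNE3, KCNJ8 and KCNMB1) negatively. The share of all genes is not given for this list either, so these counts cannot be set against it. KCNG4 had r = 0.80 and rho = 0.78 (permutation, adjusted p 0.0003 and 0.000525), 0.66 without the 2 farthest birds, and 0.26 to 0.95 within conditions. KCNC2 had r = 0.77 and rho = 0.71, with 0.46 to 0.87 within conditions. KCNIP4, KCNH6, KCNH1, KCNH8, KCNJ12, KCNJ5, KCNIP2 and KCNE2 were the others, with r from 0.49 for KCNIP4 to 0.76 for KCNJ12. KCNA4, KCNMA1 and KCNH7 were not among the genes related to any of the 3 lists on both measures, nor were KCNK4 and KCNJ15. With 24 birds and adjustment over 210 relations, this does not show that they are unrelated.

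KCNV2, known from photoreceptors, was not among the genes related on both measures either. In the 24 control eyes its signal and the mean of 11 photoreceptor markers had r = 0.35 and rho = 0.38 (permutation p 0.0884 and 0.0659), and r = 0.34 without the 2 farthest eyes. With the marker median in place of the mean r was 0.145 and rho 0.242 (permutation p 0.502 and 0.254). The within-bird differences of the 24 birds gave r = 0.31 and rho = 0.41 (permutation p 0.136 and 0.0473, adjusted p 0.232 and 0.142 among the 210 relations above). Within 6 hours r was 0.14 and within 3 days 0.46, with 12 eyes each.

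**Figure D5:**
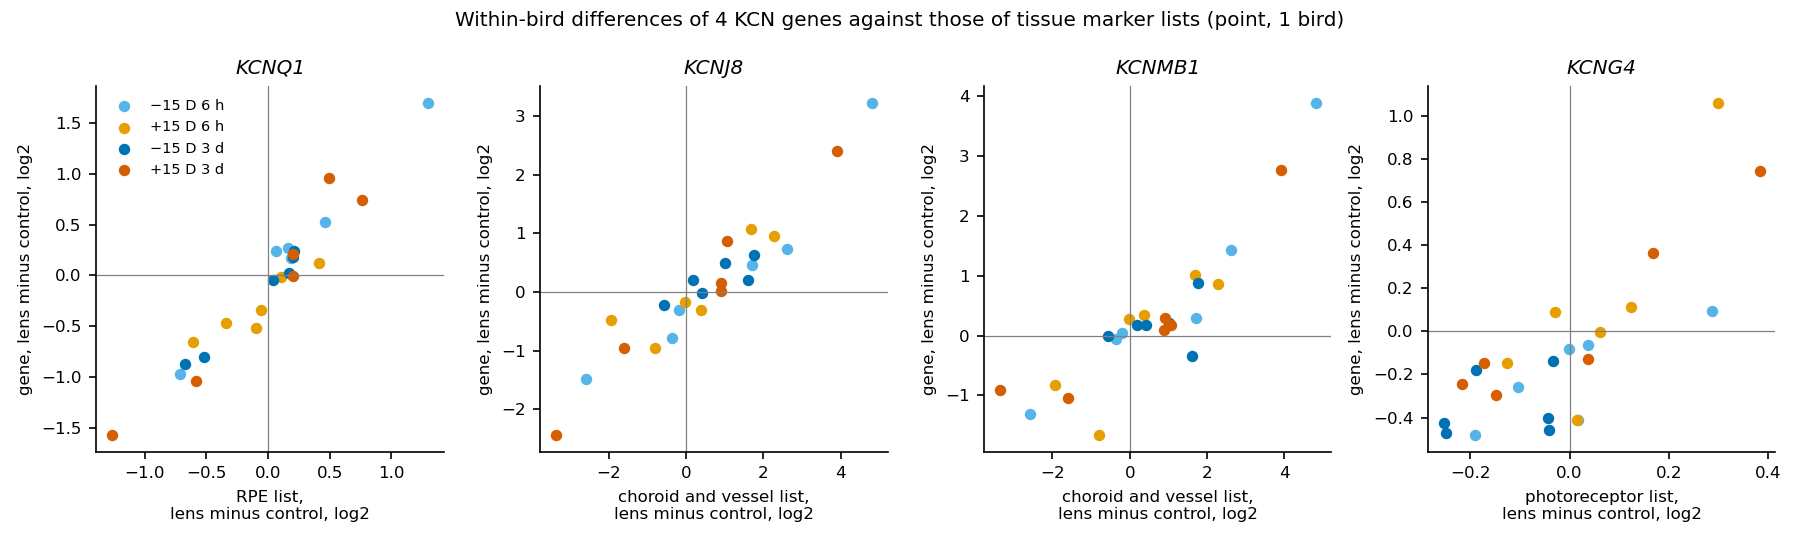
Within-bird log2 difference, lens minus control eye, of KCNQ1 against the RPE marker mean, KCNJ8 and KCNMB1 against the choroid and vessel marker mean, and KCNG4 against the photoreceptor marker mean (points are 24 single birds, coloured by condition). The points rise from lower left to upper right in each panel, with r of 0.97, 0.95, 0.89 and 0.80. KCNQ1 and KCNJ8 were each positively related to both the RPE list and the choroid and vessel list.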

How the data were processed

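The authors deposited log2 signals for each probe set of an Affymetrix chicken array. RMA and Partek made them, per the submitters' processing notes, with no version stated in the sources used here. RMA gives the probe signals of all arrays one distribution before probe sets are summarized, so a shift of most genes would not be seen. The array medians of the probe set values still ran from 6.39 to 6.51 log2. Each array took 100 ng of RNA, per the labels' protocols.

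The table held 38535 probe sets. Without 153 control and reporter probe sets, 38382 were tested without a signal filter: 27168 with 1 symbol, 177 with several (named as no gene) and 11037 with none. limma 3.58.1 in R 4.3.3 (lmFit, eBayes) was fitted to all 48 arrays with birds as blocks, and to the 24 control eyes for time. P values are two-sided and adjusted by Benjamini-Hochberg over all probe sets, with a threshold of 0.05. The labels number both eyes of a bird alike. The deviations of these pairs from their group means correlated above 0.1 in 20 of 24 birds (median 0.42, range -0.23 to 0.85). The scripts were tested on simulated data. Permutations used scipy 1.17.1.

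Genes were named if they passed, had 1 of the 4 lowest p values in a comparison, were among the 3 brightest or the dimmest of their class, or were on a list of retinal channels. KCNE3, KCNG2, KCNH1, KCNH8, KCNIP2, KCNE2, KCNJ1, KCNJ15, KCNK4, KCNK12, KCNMB1 and KCNQ1 were named after their values were seen. The members and lists were chosen with earlier results of these data known. Alternatives were array weights, an intensity trend, signal filters, the mean of all probe sets of a gene, median centring, no block, only the arrays compared, and leaving out each bird. The array weights were per bird in the lens comparisons and per array in control eyes. Leaving out birds whose eyes stood apart, or with lens or muscle markers, was added after seeing the data.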

Additional observations from a re-analysis of the deposited data

Results flagged for a closer look

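Within-bird differences were checked for a bird far from the other 5 of its condition, using Dixon's gap test with a critical gap of 0.625 of the range. The check covered 140 groups of 6 birds, from 35 named genes in 4 conditions, and 15 held such a bird. Chance gives about 1 in 20 for unrelated groups. These groups shared birds, and some genes had been named for a low p in the same differences. The count therefore cannot be set against that rate, and the share over all genes is not given here.

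In -15 D 6 hours bird 3, 4 voltage-gated pore genes stood below the other 5 birds. KCNA4 was at -0.8858, KCNC1 at -0.606, KCND2 at -0.5363 and KCNC2 at -0.4417. The other birds lay between -0.2929 and 0.036 for KCNA4 and between -0.0815 and 0.0274 for KCNC1. The eyes of bird 3 stood apart over all probe sets. In its lens eye the choroid, vessel and connective tissue markers were higher by 4.81 log2 and the RPE markers by 1.30. Their part in these values was not tested.

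In +15 D 3 days bird 1, whose eyes stood apart, KCNH7 was at -0.5987, KCNK7 at -0.308 and KCNAB1 at -0.2811. Each was below the other 5 birds. Bird 5 of that condition was high for KCNA2, at 0.6703, and for KCNA4, at 0.3118.

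In +15 D 6 hours bird 1 KCND3 was at 1.793 and KCNG4 at 1.061, with the other birds no higher than 0.3512 and 0.1145. The control eye of bird 1 had a photoreceptor marker mean of 9.60 log2, the lowest of the 12 control eyes at 6 hours. Its lens marker difference was -1.20. The part of these in the channel values was not tested. Under +15 D at 6 hours bird 6 had 0.6771 for KCNH6 and bird 2 had -0.3702 for KCNA4. In -15 D 3 days, bird 5 had -0.2899 for KCNA2 and bird 1 had -0.2588 for KCNC1.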

How the results depend on the processing

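The counts of KCN genes past the threshold were 0 in each lens comparison and 1 in control eyes. They differed as follows. Under -15 D at 3 days, 7 genes passed with array weights, 4 with only the arrays compared and 1 (KCNIP4) among probe sets above the median signal. Without the 3 birds whose eyes stood apart, all of other conditions, 1 (KCNA4) passed, an alternative chosen after seeing the data. Pooled, the counts were 4 with array weights, 3 above the median signal, 2 above viral background, 2 with the mean of all probe sets (KCNH7 and KCNIP4) and 1 with an intensity trend (KCNA4), and leaving out 1 bird gave 0 to 2. With array weights 1 gene (KCNH6) passed for duration under -15 D. The shares of all probe sets for that setting and for leaving out 1 bird are not given here, so these counts cannot be set against them. In control eyes the count was 0 in the +15 D birds alone and 0 without the birds whose eyes stood apart. It was 0 without the 8 birds with lens or muscle markers (also chosen after seeing the data), and 0 to 2 when 1 bird was left out. The shares of all probe sets in these control-eye fits are not given here, so these counts cannot be set against them. In the lens eyes the count was 3, with KCNG4 higher at 3 days and KCNC2 and KCNK12 lower (5.62% of all probe sets). Without the block on the bird, 0 members passed in every lens comparison, and the smallest pooled adjusted p was 0.983. Over all probe sets, array weights raised the calls under -15 D at 3 days from 27 to 2284, and dropping the block lowered the pooled calls from 143 to 15. The cause of these differences was not tested.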
